A study of Mus musculus with 15 samples.

Results

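The genes described here, in mouse liver, encode the proteins of the cytosolic ribosome and some paralogs of them, such as Rpl7l1 and Rpl6l. They were taken from the deposited expression table by symbol: Rpl or Rps followed by a number, with an optional a, x, y or l, together with Rplp0, Rplp1, Rplp2 and Rpsa. Symbols of named pseudogenes and of the S6 kinases were left out. The rule gave 84 of the 17527 genes in the table, 52 of the large subunit and 32 of the small subunit.

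The libraries were made from total liver RNA and fall into 3 groups of 5. BBBPH mice received a high-fat high-sucrose diet (60% of kcal from fat, 20% from protein and 20% from carbohydrate, with 0.2% cholesterol) and drinking water with 42 g/L of sugar (55% sucrose, 45% fructose) for 20 weeks, and were given 150 mg/kg Biotransformed Bear Bile Powder by mouth each day after week 12. Model mice received the same diet and sugar water for the same time with saline in place of the powder, as a model of nonalcoholic steatohepatitis, and control mice are labelled only as control. Strain, sex and age are not stated in the labels used here, nor is the diet of the controls, and the dosed group held 14 mice of which 5 libraries are present. The labels do not say how the replicate numbers (such as 1_5) were given or that each library is a separate mouse, so p-values measure the spread between these libraries.

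Each cytosolic ribosome joins a small subunit, which reads the mRNA, to a large subunit, which forms the peptide bond, and every protein of both subunits is made from its own nuclear gene. Most of these mRNAs begin with a tract of pyrimidines (C and U), the 5′ terminal oligopyrimidine or TOP motif, through which the kinase mTORC1 and the RNA-binding protein LARP1 set their translation and stability together. In liver, whose hepatocytes secrete most plasma proteins, ribosomal protein mRNAs are among the abundant classes of transcript.

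The start regions of 6 members are shown because 4 of them (Rpl22l1, Rpl35, Rpl12 and Rpl39) were among the largest changes below and 2 (Rpl22 and Rpl7l1) passed no test. Each runs 5′ to 3′ on the gene's strand from 50 bases before the annotated start to 25 bases after its beginning, from RefSeq on GRCm38.p6. Capitals mark the longest unbroken run of C or T within 25 bases of the start.

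Rpl22l1: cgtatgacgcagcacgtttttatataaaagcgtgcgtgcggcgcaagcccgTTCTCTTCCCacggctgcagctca

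Rpl35: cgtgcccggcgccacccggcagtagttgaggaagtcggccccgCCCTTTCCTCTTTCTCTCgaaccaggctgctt

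Rpl12: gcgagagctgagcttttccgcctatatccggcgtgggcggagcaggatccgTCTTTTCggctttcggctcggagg

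Rpl39: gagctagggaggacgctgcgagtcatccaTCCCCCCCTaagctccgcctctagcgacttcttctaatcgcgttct

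Rpl22: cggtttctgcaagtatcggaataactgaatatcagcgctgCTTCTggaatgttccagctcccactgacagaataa

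Rpl7l1: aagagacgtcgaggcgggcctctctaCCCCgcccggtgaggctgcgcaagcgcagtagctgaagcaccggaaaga

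These windows lie at chr3:28805458-28805532 (plus strand) for Rpl22l1, chr2:39005107-39005181 (minus strand) for Rpl35, chr2:32961662-32961736 (plus strand) for Rpl12, chrX:37085198-37085272 (minus strand) for Rpl39, chr4:152324386-152324460 (plus strand) for Rpl22 and chr17:46782632-46782706 (minus strand) for Rpl7l1. The run had 18 bases in Rpl35, 10 in Rpl22l1, 9 in Rpl39, 7 in Rpl12, 5 in Rpl22 and 4 in Rpl7l1. It began at base 2 of the transcript in Rpl22l1 and Rpl12. In Rpl35, Rpl22, Rpl39 and Rpl7l1 it began 7, 10, 21 and 24 bases before the start. A run before the start can lie outside the mRNA, so the run is not a measure of the TOP motif. Of the 63 members with a start in the promoter table, 34 (54%) had a run of at least 8 C or T on the sense strand within 25 bases of the start, against 22.3% of the 27025 genes in that table and 24.6% of 69 mitochondrial ribosomal protein genes. The letters CTTTCC on the sense strand of the same 50 bases, which can lie inside such a run, were present in 17.5% of members and 2.92% of all genes.

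Over the whole 300-base windows (250 bases before the start and 50 after), CCGGAAG on either strand, the core letters of ETS-family sites, was found in 41.3% of members and 9.93% of all genes. AAGATGGC on either strand, letters of the YY1 site, was found in 9.52% of members and 3.19% of all genes. Among the 69 mitochondrial ribosomal protein genes these shares were 37.7% for CCGGAAG, close to the members, and 17.4% for AAGATGGC, above them. TATAAA on the sense strand of the 50 bases before the start was found in 1.59% of members and 3.15% of all genes. A match is a description of letters, not of a bound site. Members with the run of at least 8 pyrimidines and members without it had similar medians of the log2 fold changes described below: -0.27 (32 tested) and -0.23 (28 tested) in model against control, and 0.38 and 0.34 in BBBPH against model. The run can lie before the start, as in Rpl39, so this split does not sort members by the TOP motif.

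The 84 members matched RefSeq positions on 19 chromosomes. Values are the authors' FPKM, fragments per kilobase of transcript per library depth, a unit set per gene length. A mean of at least 1 FPKM was needed for a test, which 81 members passed (49 large and 32 small subunit). The other 3 are Rpl32l (mean 0.586 FPKM), Rpl3l and Rpl39l. The tested members averaged between 21.1 FPKM (Rpl6l) and 1263 FPKM (Rpl41), with a median of 279 FPKM against 6.77 FPKM for all 9575 genes tested, and 71 members were above 100 FPKM. Their transcripts were short: the lengths behind the FPKM, recovered from the values, had a median of 821 bases, against 3188 bases for all genes tested and 1412.5 bases for mitochondrial ribosomal proteins.

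Depth was 35395712 to 39624160 fragments a library, and the lowest count of a tested member in any library was 321 fragments. For 60 members the annotation names processed pseudogenes (298 in all), and how the authors assigned fragments shared with such copies, or used strand, is not given in the sources used here. The 11 pseudogenes listed in the table held 0.0546% of the members' summed FPKM. Hepatocyte markers were abundant in all groups: albumin mRNA made up 8.13% ± 0.618 of summed FPKM in BBBPH, 6.68% ± 1.62 in model and 9.43% ± 0.790 in control livers (SD, n = 5 each). A few libraries stood out for markers of other tissue or of another liver cell type. In BBBPH 2_2, 8 pancreatic acinar markers summed to 3531 FPKM (at most 3.41 in any other library). In control 2_1, 7 skeletal muscle markers summed to 357 FPKM (at most 1.83 elsewhere). In model 1_4, 6 markers of cholangiocytes, a liver cell type, summed to 255 FPKM (at most 33.7 elsewhere). Results are therefore also given without these 3 libraries.

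Summed over its members, the cytosolic ribosome made up the largest share of the liver's FPKM in BBBPH livers and the smallest in model livers. The 84 members held 5.64%, 6.07%, 5.97%, 5.88% and 5.61% of summed FPKM in BBBPH 2_1, 2_2, 3_1, 3_2 and 3_4. They held 4.25%, 4.35%, 4.61%, 4.51% and 4.92% in model 1_1, 1_4, 2_1, 2_3 and 3_4. In control 1_1, 1_5, 2_1, 2_2 and 3_4 they held 5.19%, 5.95%, 4.70%, 5.77% and 5.02%. Every BBBPH library lay above every model library, while the controls spread over both, with control 1_5 and 2_2 at the level of BBBPH and control 2_1 inside the range of model.

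The mean share was 5.84% ± 0.206 in BBBPH, 4.53% ± 0.260 in model and 5.33% ± 0.523 in control livers (SD, n = 5 each), 1.29 times as high in BBBPH as in model livers and 0.85 times as high in model as in control livers. No p-value is given for the sum, because the members were chosen with results of these data known. The subunits were ordered alike: the large subunit held 3.35% ± 0.126 in BBBPH, 2.60% ± 0.137 in model and 3.08% ± 0.278 in control livers, and the small subunit 2.48% ± 0.0838 in BBBPH, 1.93% ± 0.125 in model and 2.24% ± 0.245 in control livers. The ratio of large to small was 1.35 in BBBPH, 1.35 in model and 1.38 in control livers. In whole liver, a smaller number of cells of one type and less of an mRNA per cell cannot be told apart.

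**Figure D1:**
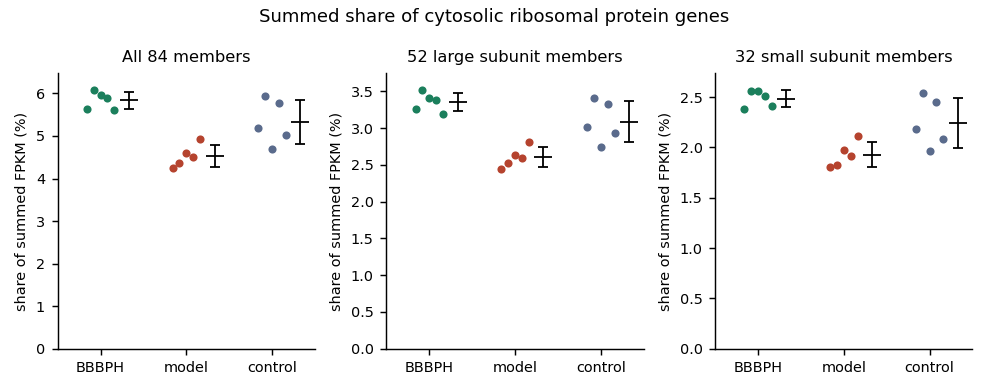
Share of summed FPKM (%, vertical axis from 0) held by all 84 members, the 52 large subunit members and the 32 small subunit members. Points are the 5 libraries of each group and bars give mean ± SD: all BBBPH points (5.61% to 6.07% for all members) lie above all model points (4.25% to 4.92%), and control points (4.70% to 5.95%) overlap both.

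The difference ran through nearly all members. Of the 81 tested members, 72, 80, 80, 80 and 80 stood above their own mean over the 15 libraries in BBBPH 2_1, 2_2, 3_1, 3_2 and 3_4, against 2, 2, 2, 3 and 25 in model 1_1, 1_4, 2_1, 2_3 and 3_4. In the controls the count was 39 in 1_1, 81 in 1_5, 0 in 2_1, 79 in 2_2 and 13 in 3_4. Members thus moved together within a library also where the group did not: control 1_5 and 2_2 were high for nearly all members, and control 2_1 was low for all of them. Model 3_4 was the least low of the model livers.

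**Figure D2:**
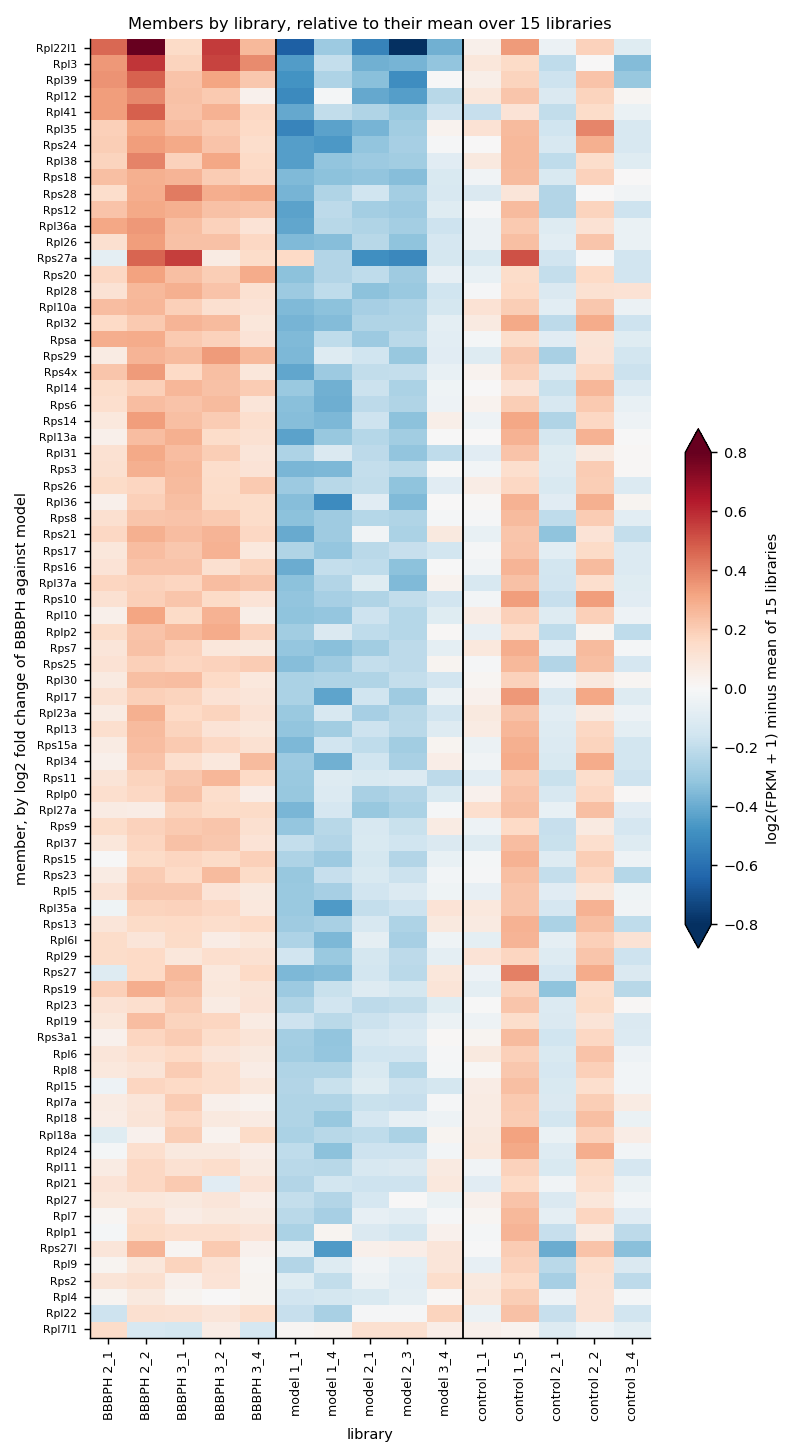
The plot shows 80 of the 81 tested members (down the page, by log2 fold change of BBBPH against model) in each of the 15 libraries, coloured by log2(FPKM + 1) minus that member's mean over all libraries, from blue (low) to red (high), with BBBPH on the left, then model, then control. BBBPH columns are red for most members and 4 model columns blue, while model 3_4 is paler, with 25 of the 81 members above their mean. The control columns differ: 1_5 and 2_2 are mostly red, 2_1 is blue, 3_4 is mostly blue and 1_1 is mixed, with 39 of 81 above.

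In livers of diet-fed model mice, ribosomal protein mRNAs were lower than in control livers. By limma on log2(FPKM + 1) over all 9575 genes, with Benjamini-Hochberg adjustment and a call at an adjusted p under 0.05, 52 of the 81 tested members (64.2%) fell, against 8.64% of all genes tested. None rose (0 of 81), against 29.9% of all genes. The 29 others passed no test. All 5 model libraries were below all 5 control libraries for 12 members (14.8%, against 5.07% of all genes), and above them for 0 (against 18.8%). The log2 fold changes of the members ran from -0.63 to 0.10 with a median of -0.25, where the median of all genes tested was 0.12. Relative to that shift of all genes the members' median was -0.37. The fold change was negative for 80 of 81 members, and 62 had an unadjusted p under 0.05, all of them lower in model livers. Of all 9575 genes tested, 4588 had such a p, in either direction.

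In the large subunit 36 of 49 members fell (median log2 fold change -0.26), and in the small subunit 16 of 32 (median -0.25). The size of the count rested in part on the 2 high controls: 34 members fell without control 1_5 and 33 without control 2_2, and the range over the 15 single omissions was 33 to 62. Leaving out both model 1_4 and BBBPH 2_2 gave 38 falls, and dropping control 2_1 too gave 50.

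In BBBPH livers, the same class of mRNAs was higher than in model livers in nearly every member. Of the 81 tested, 72 rose (88.9%, against 14.2% of all genes tested) and 0 fell (against 12.2%). All 5 BBBPH libraries were above all 5 model libraries for 66 members (81.5%, against 9.11% of all genes), and below them for 0 (against 7.9%). The log2 fold changes ran from -0.11 to 1.01 with a median of 0.37, where the median of all genes tested was 0.02. They were positive for 80 members, and 75 had an unadjusted p under 0.05, all of them higher in BBBPH livers. Such a p was found for 3598 of all 9575 genes tested, in either direction. In the large subunit 43 of 49 rose (median 0.35), and in the small subunit 29 of 32 (median 0.40). The count stayed between 62 and 74 when single libraries were left out, was 56 with both model 1_4 and BBBPH 2_2 left out, and 60 with control 2_1 left out too.

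Both comparisons use the model libraries, so they are not independent and calls that go opposite ways in them are no separate evidence. Rpl4, a protein at the wall of the exit tunnel that was named after its values were seen, was called in model against control without being called in BBBPH against model, with log2 fold changes of -0.16 (adjusted p 0.0424, limma) and 0.13 (adjusted p 0.138). The 8 members that passed neither test were Rpl7, Rpl7l1, Rpl9, Rpl22, Rplp1, Rps2, Rps27 and Rps27l, of which Rpl9 and Rps2 were likewise named after their values were seen.

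Against control livers, BBBPH livers differed in few members. Of the 81 tested, 10 rose (12.3%, against 24.4% of all genes tested) and 0 fell (against 3.7%), so the share that rose was below the background. The 10 were Rpl3, Rpl22l1, Rps28, Rpl41, Rpl39, Rplp2, Rps29, Rps20, Rpl36a and Rpsa, with log2 fold changes of 0.21 to 0.46. All BBBPH libraries were above all control libraries for 5 members, Rpl3, Rps28, Rpl41, Rplp2 and Rps20 (6.17%, against 15.3% of all genes), and below them for 0 (against 2.22%). Rps20 was named after its values were seen. The median log2 fold change of the members was 0.13, as was that of all genes tested (0.13). An unadjusted p under 0.05 was found for 23 of the 81 members, all of them higher in BBBPH livers. It was found for 3900 of all 9575 genes tested, in either direction, so the members' share was again below the background. Under median-ratio scaling, which brings the median of all genes to 0.00, the members' median turned to -0.03 and the split of calls from 10 higher and 0 lower to 1 higher (Rpl3) and 1 lower (Rpl4). The count of rises was 4 without control 2_1, 5 without control 1_1, control 3_4, BBBPH 2_2 or BBBPH 3_2, 6 without BBBPH 2_1 or BBBPH 3_1, and 22 without control 1_5. With both model 1_4 and BBBPH 2_2 left out it was 4 (Rpl3, Rpl41, Rplp2 and Rps28), and with control 2_1 left out too it was 2 (Rpl3 and Rps28).

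**Figure D3:**
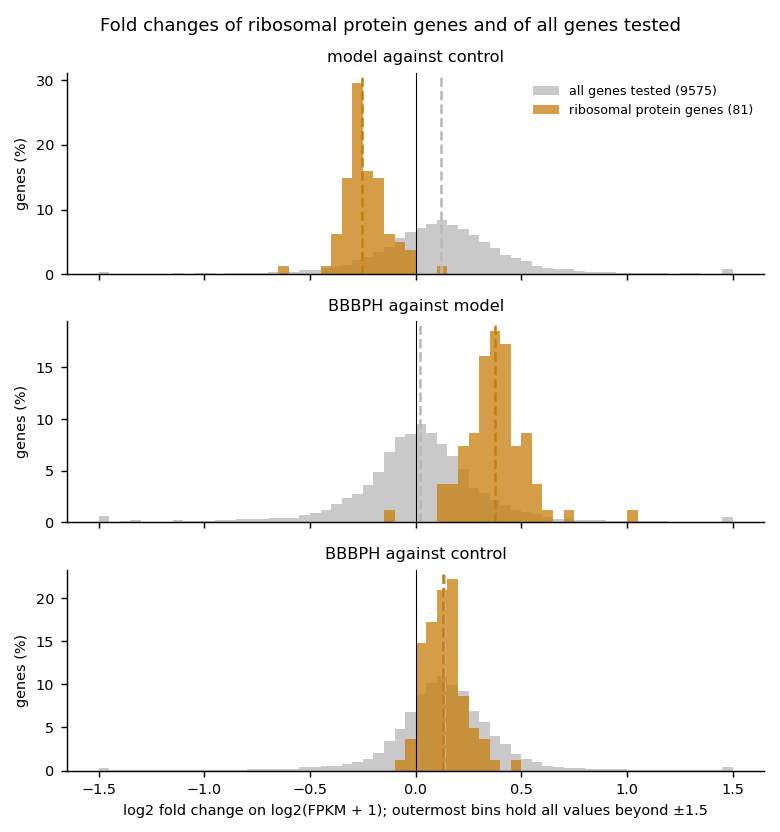
Distribution of log2 fold changes on log2(FPKM + 1) for the 81 tested members (orange) and all 9575 genes tested (grey), each as a percentage of its own set, in the 3 comparisons. Dashed lines mark the medians: the members lie at -0.25, 0.37 and 0.13 and all genes at 0.12, 0.02 and 0.13 in model against control, BBBPH against model and BBBPH against control.

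Rpl22l1 had the widest change of all tested members. It is a paralog of Rpl22, and in mouse the Rpl22 protein is known to hold down Rpl22l1 expression. It measured 46.4, 61.7, 37.3, 49.8 and 40.2 FPKM in BBBPH livers, 20.9, 27.1, 22.8, 18.0 and 25.4 FPKM in model livers and 34.4, 42.6, 32.4, 38.1 and 31.2 FPKM in control livers. The model libraries lay apart below both other groups, and the BBBPH and control libraries overlapped. Its log2 fold change was -0.63 ± 0.13 (SE) in model against control (adjusted p 0.00208), 1.01 ± 0.13 in BBBPH against model (adjusted p 9.58e-05) and 0.37 ± 0.13 in BBBPH against control (adjusted p 0.0486). The first 2 calls held in every alternative tried, and the last was lost in 18 of 29.

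Rpl22 itself, a large subunit protein that binds RNA, passed no test. It measured 53.6, 65.9, 65.4, 64.3 and 66.4 FPKM in BBBPH livers, 52.8, 49.99, 59.7, 59.8 and 68.1 FPKM in model livers and 58.2, 71.0, 52.9, 64.8 and 54.0 FPKM in control livers. All 3 groups overlapped. Its log2 fold changes were -0.05 ± 0.10 in model against control and 0.12 ± 0.10 in BBBPH against model (adjusted p 0.717 and 0.392). The paralogs' different change was not tested as a difference.

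Rpl3, the large subunit protein that reaches closest to the site of peptide bond formation, measured 286, 335, 255, 327 and 292 FPKM in BBBPH livers. It measured 164, 197, 172, 173 and 180 FPKM in model livers and 239, 250.2, 195, 225 and 176 FPKM in control livers. Every BBBPH library was above every model and every control library, while model and control libraries overlapped. On the log2 scale Rpl3 in BBBPH livers rose by 0.75 ± 0.10 (SE) against model (adjusted p 0.000105) and by 0.46 ± 0.10 against control (adjusted p 0.00445), the one rise against control that held in all 29 alternatives without a block. Its fall in model against control (log2 fold change -0.28 ± 0.10, adjusted p 0.0377) was lost in 8 of them, among them without control 1_1, 1_5 or 2_2 and without model 1_1, 2_1, 2_3 or 3_4.

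Its paralog Rpl3l, which replaces Rpl3 in striated muscle, was listed at 0 in 9 of the 15 libraries and stood at 1.22 FPKM in control 2_1. That library is also the one with skeletal muscle markers, whose part in the value was not tested. In the others it reached at most 0.138 FPKM. Rpl39l, the testis paralog of Rpl39, was at most 0.197 FPKM and listed at 0 in 7 libraries.

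Among the other proteins of the large subunit's tunnel and factor-binding side, Rpl12, at the base of the stalk that recruits elongation factors, measured 398, 411, 371, 365 and 323 FPKM in BBBPH livers. It measured 221, 312, 236, 232 and 270.4 FPKM in model livers and 335, 368, 291, 357 and 318 FPKM in control livers. BBBPH and model libraries did not overlap, and model 1_4 alone reached into the control range. Rpl12 fell by 0.40 on the log2 scale (SE 0.10) in model against control (adjusted p 0.00605) and rose by 0.56 ± 0.10 in BBBPH against model (adjusted p 0.000884).

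Rpl35, which sits at the mouth of the exit tunnel, measured 542, 588, 562, 549 and 529 FPKM in BBBPH livers. It measured 328, 352, 366, 390.3 and 483 FPKM in model livers and 515, 565, 424, 622 and 434 FPKM in control livers. Here model 3_4 overlapped 2 controls, and no model library reached BBBPH. The log2 fold changes were -0.41 ± 0.11 (adjusted p 0.0107) in model against control and 0.54 ± 0.11 (adjusted p 0.00283) in BBBPH against model.

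Rpl39, a small protein of the tunnel wall, measured 261, 282, 238, 253 and 236 FPKM in BBBPH livers. It measured 145, 171, 161, 144 and 202 FPKM in model livers and 209, 230.3, 181, 238 and 165 FPKM in control livers. BBBPH was above model throughout (log2 fold change 0.63 ± 0.11, adjusted p 0.000847). Its calls in model against control (-0.31, adjusted p 0.0393) and in BBBPH against control (0.32, adjusted p 0.0439) came from overlapping groups and were lost in 8 and 14 of the 29 alternatives.

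The proteins of the stalk passed different tests. Rplp0, which anchors the stalk, averaged 449.9 ± 20.0 FPKM in BBBPH, 353 ± 20.7 in model and 426 ± 41.2 in control livers (SD, n = 5 each), with log2 fold changes of -0.27 (adjusted p 0.00984) in model against control and 0.35 (adjusted p 0.00259) in BBBPH against model. Rplp2, one of the acidic proteins it carries, averaged 369.9 ± 15.1 FPKM in BBBPH, 284 ± 22.7 in model and 304 ± 31.4 in control livers. It passed no test in model against control (-0.10, adjusted p 0.324) but rose in BBBPH against model (0.38, adjusted p 0.00204) and against control (0.29, adjusted p 0.0144). Rplp1, its partner and the second most abundant member, averaged 744 ± 34.6 FPKM in BBBPH, 651 ± 54.4 in model and 690.2 ± 97.0 in control livers and passed none. Differences between these 3 genes were not tested.

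**Figure D4:**
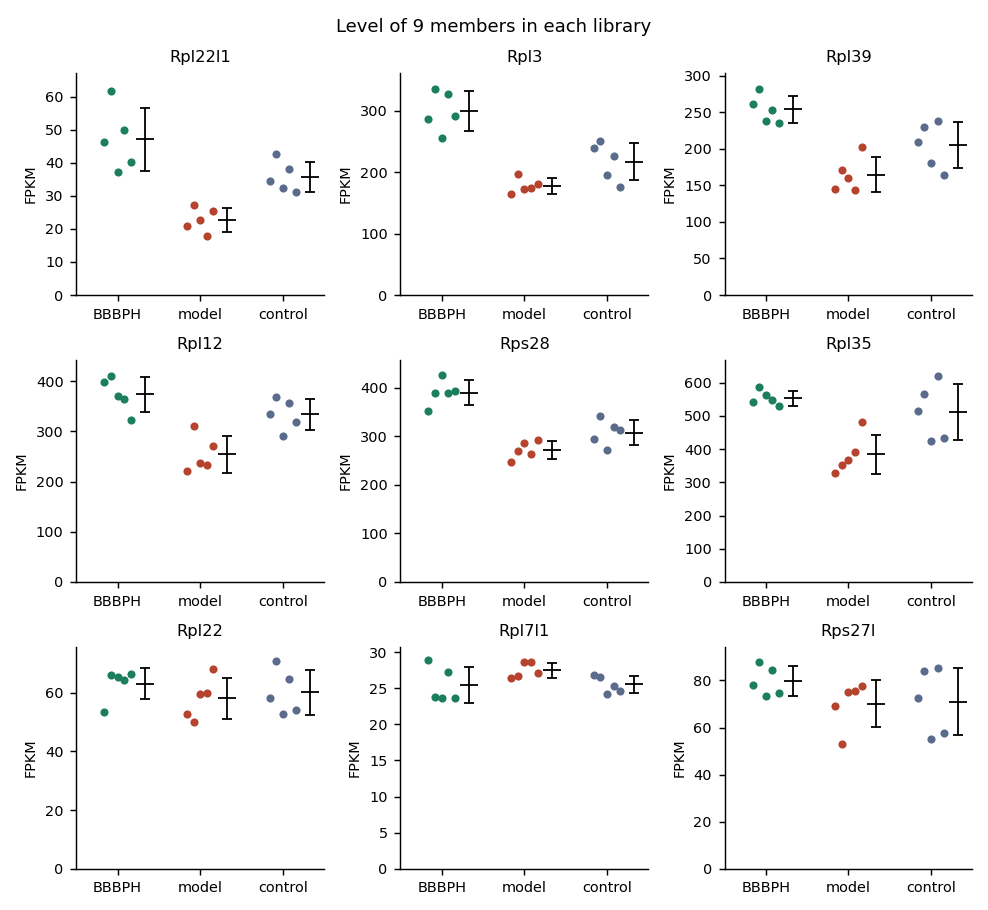
FPKM (vertical axes from 0) of 9 members in the 5 libraries of each group, with mean ± SD beside the points. In the upper 6 panels (Rpl22l1, Rpl3, Rpl39, Rpl12, Rps28, Rpl35) no BBBPH point falls to the level of a model point, and in the lower 3 (Rpl22, Rpl7l1, Rps27l) the 3 groups overlap.

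The most abundant member, Rpl41, encodes one of the shortest known proteins. It measured 1567, 1732, 1456, 1510 and 1392 FPKM in BBBPH livers, 935, 1083, 1053, 1014 and 1109 FPKM in model livers and 1096, 1342, 1085, 1379 and 1198 FPKM in control livers. All BBBPH libraries were above all others. It rose by 0.56 against model (adjusted p 0.000311) and by 0.33 against control (adjusted p 0.0122), the second of which was lost under median-ratio scaling and without the 3 libraries with markers of other tissue together. Its fall in model against control (-0.23) passed only just, at an adjusted p of 0.049998, and was lost in 17 of 29 alternatives. Rpl28, the third in abundance after Rplp1, averaged 772 ± 41.8 FPKM in BBBPH, 562 ± 27.6 in model and 698 ± 54.0 in control livers. Its model libraries lay below all others, with log2 fold changes of -0.31 (adjusted p 0.00286) in model against control and 0.46 (adjusted p 0.000251) in BBBPH against model.

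Of the members known for roles beyond the ribosome, Rpl5 and Rpl11 bind 5S rRNA and, when free, inhibit Mdm2, the ubiquitin ligase of p53. Rpl5 averaged 199 ± 9.05 FPKM in BBBPH, 160 ± 12.1 in model and 184 ± 17.1 in control livers. It rose in BBBPH against model (0.32, adjusted p 0.00508), and its fall in model against control (-0.19, adjusted p 0.0472) was lost in 15 of 29 alternatives. Rpl11 averaged 202 ± 5.995 FPKM in BBBPH, 172 ± 14.9 in model and 189 ± 20.1 in control livers, and only the test against model passed (0.23, adjusted p 0.0363, lost in 10 of 29). Rpl10, whose entry completes the large subunit, averaged 736 ± 64.6 FPKM in BBBPH, 559.7 ± 36.7 in model and 683 ± 62.9 in control livers, with log2 fold changes of -0.28 (adjusted p 0.0131) in model against control and 0.39 (adjusted p 0.00259) in BBBPH against model. The paralogs Rpl10l (of Rpl10) and Rps4l (of Rps4x) are not among the 17527 genes of the expression table.

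Rpl7l1, a paralog of Rpl7, was the one tested member with its signs the other way round. It measured 29.0, 23.8, 23.6, 27.3 and 23.7 FPKM in BBBPH livers, 26.5, 26.7, 28.6, 28.6 and 27.1 FPKM in model livers and 26.9, 26.6, 24.2, 25.4 and 24.7 FPKM in control livers. The 3 groups overlapped, and neither difference passed (0.10 ± 0.065, adjusted p 0.228, in model against control, and -0.11 ± 0.065, adjusted p 0.23, in BBBPH against model). Rpl7 averaged 398 ± 11.9 FPKM in BBBPH, 347 ± 25.9 in model and 396 ± 42.8 in control livers, and although every BBBPH library was above every model library, its test did not pass (0.20, adjusted p 0.0677).

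In the small subunit, Rps28, which lies where the mRNA leaves the ribosome, measured 352, 390.3, 426, 389.7 and 393 FPKM in BBBPH livers, 246, 270.2, 286, 264 and 292 FPKM in model livers and 294, 341, 271, 320.1 and 313 FPKM in control livers. All BBBPH libraries were above all others, while model and control overlapped. It passed no test in model against control (-0.18, adjusted p 0.0739), and rose in BBBPH against model (0.52, adjusted p 0.000184) and against control (0.34, adjusted p 0.00486), the last lost only under median-ratio scaling (0.18, adjusted p 0.0928) among the 29 alternatives.

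Rpsa, also known as the laminin receptor, averaged 322 ± 17.4 FPKM in BBBPH, 236 ± 16.9 in model and 279 ± 21.6 in control livers. Its log2 fold changes were -0.24 (adjusted p 0.0157) in model against control, 0.45 (adjusted p 0.000361) in BBBPH against model and, for BBBPH set against control, 0.21 (adjusted p 0.0398, lost in 11 of 29 alternatives). Rps3, at the mRNA entry, averaged 237 ± 13.7 FPKM in BBBPH, 178 ± 19.1 in model and 215 ± 18.6 in control livers (-0.27, adjusted p 0.0169, in model against control, and 0.41, adjusted p 0.00178, in BBBPH against model). Rps6, the substrate of the S6 kinases downstream of mTORC1, averaged 370.2 ± 18.3 FPKM in BBBPH, 274 ± 26.0 in model and 336 ± 35.4 in control livers (-0.29, adjusted p 0.0118, and 0.44, adjusted p 0.00136, in the same comparisons). Rps4x averaged 307 ± 20.2 FPKM in BBBPH, 226 ± 20.5 in model and 270.2 ± 29.8 in control livers; it rose against model (0.44, adjusted p 0.00159), and its fall (-0.25, adjusted p 0.030) was lost in 7 of 29 alternatives.

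A few small subunit members passed only in BBBPH against model. Rps19, whose human gene is mutated in Diamond-Blackfan anaemia, averaged 156 ± 9.33 FPKM in BBBPH, 126 ± 12.9 in model and 132 ± 20.5 in control livers, and passed only against model (0.31, adjusted p 0.0335, lost in 9 of 29 alternatives). Rps27a, made as a fusion with ubiquitin, measured 153, 224, 238, 169.9 and 179.8 FPKM in BBBPH livers, 181, 137, 115, 113 and 147 FPKM in model livers and 149, 231, 146, 161 and 146 FPKM in control livers. Its libraries scattered and all 3 groups overlapped. The one test it passed (BBBPH against model, 0.48, adjusted p 0.0381) was lost in 10 of 29 alternatives.

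Rps27 averaged 536 ± 49.3 FPKM in BBBPH, 435 ± 58.0 in model and 530.4 ± 95.3 in control livers, and missed the threshold in both comparisons with model (adjusted p 0.0777 and 0.0700). Its paralog Rps27l, a p53 target, averaged 79.7 ± 6.25 FPKM in BBBPH, 70.1 ± 10.1 in model and 71.0 ± 14.3 in control livers and passed no test (-0.01, adjusted p 0.971, in model against control, and 0.19, adjusted p 0.30, in BBBPH against model).

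A few ribosomal proteins whose symbols the rule does not catch were read beside the members. Rack1, a scaffold protein on the small subunit, averaged 335 ± 14.2 FPKM in BBBPH, 246 ± 11.4 in model and 311 ± 29.7 in control livers, and its model libraries lay below all others (log2 fold change -0.33, adjusted p 0.00211, against control, and 0.45, adjusted p 0.000366, for BBBPH against model). Fau, which yields Rps30, averaged 328 ± 24.7 FPKM in BBBPH, 286 ± 34.0 in model and 328 ± 44.4 in control livers, and Rpl36al, a paralog of Rpl36a, 254 ± 23.9 FPKM in BBBPH, 226 ± 15.9 in model and 245 ± 8.81 in control livers. Neither of these 2 passed a test.

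Beyond these, lists of other genes of protein synthesis, written from general knowledge, held smaller shares of calls in the members' direction in both comparisons with model. In BBBPH against control, 24.4% of all genes and 12.3% of members rose. The share that rose there was 41.7% of ribosome biogenesis factors, 38.9% of RNA polymerase I genes, 25.7% of initiation factors and 21.6% of regulators of translation. It was 18.2% of elongation and termination factors, 15.4% of mitochondrial ribosomal proteins and 4.76% of other TOP mRNAs. The shares over all genes tested, against which the counts below are read, were 29.9% higher and 8.64% lower in model against control, and 14.2% higher and 12.2% lower in BBBPH against model. Of 78 mitochondrial ribosomal proteins, which form the separate ribosome of that organelle, 2 fell and 15 rose in model against control (median log2 fold change 0.12), and 3 rose and 3 fell in BBBPH against model (median 0.02). Those medians equal the medians of all genes tested. Of 48 ribosome biogenesis factors, which process rRNA and assemble subunits in the nucleolus, 1 fell and 13 rose in model against control (median 0.11), and 9 rose and 1 fell in BBBPH against model (median 0.06). The 1 that fell in model against control was Ncl, nucleolin, at 30.5 ± 2.00 FPKM in BBBPH, 24.3 ± 1.35 in model and 28.2 ± 2.63 in control livers. Its log2 fold change was -0.20 there (adjusted p 0.0345, lost in 10 of 29 alternatives) and 0.32 in BBBPH against model (adjusted p 0.00414). Of the 13 that rose in model against control, Pes1 and Pno1 had the smallest adjusted p in limma (0.32, adjusted p 0.000242, and 0.45, adjusted p 0.000319). Pno1 was the 1 that fell in BBBPH against model (-0.23, adjusted p 0.0295). Of 18 genes of RNA polymerase I, which transcribes rRNA, 2 fell and 6 rose in model against control, and 3 rose and 0 fell in BBBPH against model (medians 0.16 and 0.07).

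Of 35 initiation factors, 0 fell and 8 rose in model against control, and 4 rose and 2 fell in BBBPH against model (medians 0.06 and 0.01). The 8 are 22.9% and the 4 are 11.4% of the list, neither above the share of all genes. Eif1a, with the smallest adjusted p of the list in both, averaged 12.7 ± 2.56 FPKM in BBBPH, 26.7 ± 4.67 in model and 12.5 ± 1.64 in control livers. It moved opposite to the members by limma (1.03, adjusted p 6.15e-05, in model against control, and -1.02, adjusted p 9.75e-05, in BBBPH against model). Of 11 elongation and termination factors, 1 fell and 0 rose in model against control, and 3 rose and 0 fell in BBBPH against model (medians -0.06 and 0.15). The 1 that fell was Eef2, which moves the ribosome along the mRNA and whose own mRNA is of the TOP class. It averaged 623 ± 62.6 FPKM in model and 788 ± 50.05 FPKM in control livers (-0.34, adjusted p 0.00468). Of 21 other mRNAs listed as carrying a TOP motif, 14 of which stand in the lists above, 3 fell and 3 rose in model against control, and 7 rose and 1 fell in BBBPH against model (medians -0.16 and 0.18). Of the 7 that stand in none of them, 3 rose and 0 fell in model against control (median -0.06). In BBBPH against model, 1 of these 7 rose and 1 fell (median 0.17).

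**Figure D5:**
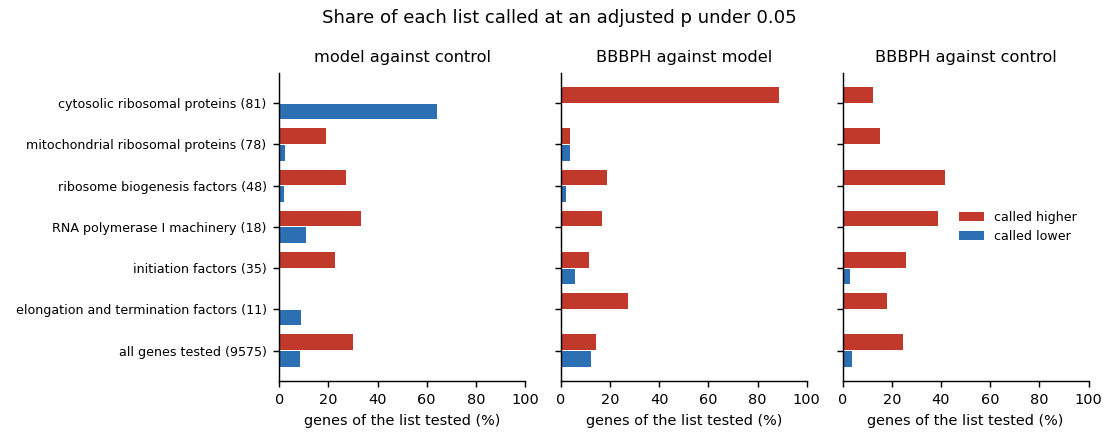
Percentage of the tested genes of each list (number in brackets) called higher (red) or lower (blue) at an adjusted p under 0.05 in the 3 comparisons, with all 9575 genes tested in the last row. The cytosolic ribosomal proteins have the longest blue bar in model against control (64.2%) and the longest red bar in BBBPH against model (88.9%), and a red bar shorter than that of all genes in BBBPH against control (12.3% against 24.4%).

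Of 37 regulators of translation and of TOP mRNAs, 10 rose and 4 fell in model against control, and 6 rose and 6 fell in BBBPH against model (medians 0.04 and 0.03). The rises and falls are 27% and 10.8% of the list in model against control, and 16.2% each in BBBPH against model, near the shares of all genes. Eif4ebp3, which binds and blocks the cap-binding protein eIF4E, averaged 79.6 ± 48.3 FPKM in BBBPH, 18.0 ± 6.49 in model and 69.3 ± 29.2 in control livers (-1.85, adjusted p 0.00127, in model against control, and 1.95, adjusted p 0.00132, in BBBPH against model). Ddit4, an inhibitor of mTORC1 that is induced by stress, averaged 2.29 ± 0.474 FPKM in BBBPH, 6.28 ± 1.11 in model and 4.02 ± 0.739 in control livers. It fell by 1.14 on the log2 scale in BBBPH against model (adjusted p 2.59e-05) and rose by 0.54 in model against control (adjusted p 0.00438). Deptor, another inhibitor of mTORC1, moved the other way in BBBPH against model. It averaged 34.3 ± 3.84 FPKM in BBBPH and 24.6 ± 3.01 in model livers (0.46, adjusted p 0.00173, limma). Myc, a transcription factor known to activate ribosomal protein and ribosome biogenesis genes, measured 1.05, 1.83, 1.36, 0.956 and 2.61 FPKM in BBBPH livers, 3.07, 16.5, 1.71, 2.33 and 1.36 FPKM in model livers and 14.3, 9.90, 20.3, 20.6 and 38.6 FPKM in control livers. Its BBBPH libraries were below all controls, as were the model libraries apart from model 1_4. It fell by 2.19 on the log2 scale in model against control (adjusted p 0.00165) and by 2.99 in BBBPH against control (adjusted p 0.000569), and was not called in BBBPH against model. These are mRNA levels, and phosphorylation of mTORC1 targets and translation were not measured.

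Markers of some cell types also differed between groups, not always in the members' direction. Over all genes tested, 29.9% rose and 8.64% fell in model against control, and 14.2% rose and 12.2% fell in BBBPH against model. In BBBPH against control 24.4% rose. The summed FPKM of 6 erythroid markers was 552, 714, 716, 357 and 594 in BBBPH 2_1, 2_2, 3_1, 3_2 and 3_4, against 374, 353, 331, 432 and 429 in model 1_1, 1_4, 2_1, 2_3 and 3_4. In control 1_1, 1_5, 2_1, 2_2 and 3_4 it was 364, 553, 483, 802 and 314. The sum of BBBPH 3_2 lay inside the range of model, and none of the 6 markers was at 0 in a whole group. Of the 5 tested, 2 rose and 1 fell in BBBPH against model, and none passed in model against control (0 at an adjusted p under 0.05). The 6 markers of dividing cells were low, with sums of 4.12 to 7.44 FPKM in BBBPH, 2.22 to 4.65 in model and 2.15 to 4.36 in control livers, and the 1 that was tested rose in BBBPH against model and against control. Of 8 hepatocyte markers, 4 fell and 0 rose in model against control, with sums of 36153 to 61934 FPKM in model and 65656 to 73483 FPKM in control livers. In BBBPH against model 1 rose and 3 fell, while the sum, 59309 to 69493 FPKM in BBBPH, was higher on average than in model (65107 ± 4584 against 53418 ± 11169 FPKM, SD). Of 8 stellate cell and fibroblast markers, 7 rose in model against control, with sums of 140 to 178 FPKM in model and 106 to 131 FPKM in control livers, and 4 fell in BBBPH against model (126 to 141 FPKM in BBBPH). The part of these cell types in the members' levels was not tested.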

How the data were processed

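Values are the authors' FPKM as deposited, 1 column per library and 15 libraries. Tools listed in the submitters' processing notes are fastp, HISAT2, HTSeq and DESeq2, with the build mm10 and no versions or roles. The single files and the series table did not differ (0 FPKM at most). Libraries were grouped by the treatment label, 5 each, and all entered the main test. Depth, gene lengths and fragment counts were recovered from whole-number ratios of the FPKM for 14715 genes (100% of values within 0.02 of a whole number). In 30 pairs of libraries of 1 group the chi-square per gene was 25.7 to 314, where sampling noise alone gives 1.

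The test was limma (version 3.58.1, R 4.3.3) on log2(FPKM + 1) for the 9575 genes that averaged 1 FPKM or more, with 3 group means, eBayes with trend=TRUE and 12 residual degrees of freedom. P-values (2-sided) received the Benjamini-Hochberg adjustment over all genes tested within each comparison. On this scale a fold change understates that of low genes. The procedure was tested on simulated data. Tables and plots were made in Python 3.11.15 (pandas 2.3.3, numpy 2.4.6, matplotlib 3.10.9). Promoter windows came from RefSeq on GRCm38.p6 (63 members matched) and pseudogene names from GENCODE M21.

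Members and lists were chosen with earlier results of these data known. Genes with values were named by a rule: a set of members of known role and the paralog pairs, the 4 largest called changes in each direction per comparison, the 3 most abundant members, Fau, Rpl36al and Rack1, and at most 2 called genes of a list per direction with the smallest adjusted p, of which a few are given. Some genes that the rule names are not reported here. Alternatives were the pseudocount (0.1), the filter (none, or 5 FPKM), the scaling (TPM, median ratios, quantiles, or without the 20 most abundant genes), other limma options, voom on the recovered counts, each library left out, and the replicate number as a block (31 in all, 29 without a block).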

Additional observations from a re-analysis of the deposited data

Results flagged for a closer look

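In each group of 5 libraries, the value farthest from the others was compared with the range of the group for 35 genes and the summed share. Of 108 groups, 11 had a library standing apart by Dixon's test at its 95% level, which chance gives in about 1 of 20 groups. Among tested members, BBBPH 2_1 was lowest for Rpl22 (53.6 FPKM, others 64.3 to 66.4) and for Rplp1 (684 FPKM, others 747 to 770.4). Rps27a was highest in control 1_5 (231 FPKM, others 146 to 161), the library with all 81 members above their mean.

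Outside the rule, Eef2 was lowest in model 1_4 (514 FPKM, other model libraries 636 to 672), Myc highest in the same library (16.5 FPKM, other model libraries 1.36 to 3.07) and Ncl highest in BBBPH 3_1 (34.0 FPKM, other BBBPH libraries 29.2 to 29.9).

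The paralogs of near-zero level made up the rest. Rpl3l stood apart in BBBPH 3_4 (0.138 FPKM, others 0 to 0.0147), in model 1_4 (0.0296 FPKM, others listed at 0) and in control 2_1 (1.22 FPKM, others 0 to 0.0743), which also held skeletal muscle markers. Rpl39l was listed at 0 in model 2_1 (other model libraries 0.0304 to 0.0320 FPKM) and at 0.197 FPKM in control 3_4 (other controls listed at 0).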

How the results depend on the processing

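Under the 29 alternatives without a block, 0 members were called higher in model against control and 0 lower in BBBPH against model. Calls held in all 29 for 33 of 52 members in model against control, 56 of 72 in BBBPH against model and 1 of 10 in BBBPH against control. Leaving out each library in turn gave 33 to 62 falls in model against control, 62 to 74 rises in BBBPH against model and 4 to 22 rises in BBBPH against control. Median log2 fold changes then ran from -0.295 to -0.203, 0.351 to 0.416 and 0.0863 to 0.177, and log2 ratios of the summed share from -0.276 to -0.191, 0.343 to 0.397 and 0.0897 to 0.174. Median-ratio scaling moved the members' median to -0.394 in model against control and turned it to -0.0318 in BBBPH against control, with 1 call higher and 1 lower in place of 10 and 0. With both model 1_4 and BBBPH 2_2 left out there were 4 rises in BBBPH against control, and with control 2_1 left out too there were 2. A fit of the 2 groups alone gave 37 falls in model against control, and voom on recovered counts 53 falls, 72 rises and 11 rises in the 3 comparisons. The cause of these changes was not tested, apart from fewer libraries where some were left out.

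Residuals of 8 same-numbered pairs of libraries correlated between -0.329 and 0.0239, and 0 of 10 libraries correlated best with its own number. So few pairs cannot settle what the numbers mean. Only 10 of the 15 libraries share their number with a library of another group. A block on the number also leaves fewer residual degrees of freedom than the 12 of the main fit. The part of that loss in the counts below was not tested. With the number as a replicate block, 1 member (Rpl22l1) was called lower in model against control with a median of -0.129 in place of -0.254, 2 (Rpl22l1 and Rpl3) higher in BBBPH against model with a median of 0.255 in place of 0.374, and 0 in BBBPH against control. With the first digit as the block the counts were 44, 58 and 5 (Rpl22l1, Rpl3, Rpl41, Rplp2 and Rps28). Only Rpl3l, Rpl32l and Rpl39l were too low in these libraries to test.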
